A study of Mus musculus with 2 samples.

Results

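Notch pathway genes were examined in total RNA of the mouse embryonic heart. The 38 genes were taken by symbol from the 43346 Ensembl genes of the deposited tables, after their identifiers were matched without version to GENCODE mouse names. They comprise 4 receptors, 6 ligands, 7 target genes, 4 genes of the nuclear complex, 3 fringe enzymes, the fucosyltransferase Pofut1, 2 Numb proteins, 4 Deltex ligases, 4 secretase subunits, 2 ADAM proteases and the ligand ligase Mib1. The samples were hearts of healthy B6NCrl embryos, a C57BL/6N substrain, at embryonic day 13.5, with male and female embryos pooled. They formed 1 group of 2 libraries, labelled as biological replicates 1 and 2 under the same donor entry. No treated or mutant group exists, so the data answer how much RNA of each gene the heart held and how closely both libraries gave the same level. The labels name mirVana extraction, 10 ng of starting RNA and a size range above 200 nt.

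Notch signalling passes between touching cells. A ligand on one cell binds a receptor on its neighbour, an ADAM protease and then gamma-secretase cut the receptor, and the freed intracellular domain enters the nucleus, where it joins the DNA-binding protein Rbpj and a Mastermind coactivator to switch on HES and HEY repressor genes. In the embryonic heart the pathway is known for its part in trabeculation, in the endocardial cushions that form valves, in the outflow tract and in coronary vessels.

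Rbpj binds DNA at GTGGGAA, and windows around the start sites of listed target genes are shown to mark where these letters occur. RefSeq start-site windows on GRCm38.p6, each 300 bases long from 250 before to 50 after the start, were at hand for 31 of the 38 genes, in 40 windows. Dtx3, Dtx4, Hes1, Hey1, Heyl, Mfng and Mib1 had none. Of the target genes, Hey2, Hes5, Hes6 and Nrarp had a window, and 2 of these 4 held the motif on either strand, where it reads TTCCCAC on the other strand and no 2 matches overlap. Hes6 has 2 windows, and the one farther upstream is shown. The first 253 bases of 1 window per gene, up to 3 bases past the start, are given 5′ to 3′ on the gene's strand, with every match in capitals.
Hey2, chr10:30842781-30843033, minus strand: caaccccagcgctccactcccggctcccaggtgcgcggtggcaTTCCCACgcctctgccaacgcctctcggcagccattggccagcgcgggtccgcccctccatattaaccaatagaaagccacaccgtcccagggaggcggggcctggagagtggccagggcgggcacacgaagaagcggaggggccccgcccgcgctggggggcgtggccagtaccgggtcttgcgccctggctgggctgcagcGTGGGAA
Hes5, chr4:154960673-154960925, plus strand: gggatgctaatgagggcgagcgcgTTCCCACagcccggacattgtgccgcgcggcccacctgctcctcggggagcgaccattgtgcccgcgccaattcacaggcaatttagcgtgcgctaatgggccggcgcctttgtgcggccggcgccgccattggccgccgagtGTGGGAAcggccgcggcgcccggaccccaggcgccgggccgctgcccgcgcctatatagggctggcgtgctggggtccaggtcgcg
Hes6, chr1:91414036-91414288, minus strand: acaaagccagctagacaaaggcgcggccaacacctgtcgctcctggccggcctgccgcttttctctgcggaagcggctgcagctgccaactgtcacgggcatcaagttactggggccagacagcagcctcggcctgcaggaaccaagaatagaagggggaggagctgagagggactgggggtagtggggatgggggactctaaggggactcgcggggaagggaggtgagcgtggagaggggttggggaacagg
Nrarp, chr2:25180508-25180760, plus strand: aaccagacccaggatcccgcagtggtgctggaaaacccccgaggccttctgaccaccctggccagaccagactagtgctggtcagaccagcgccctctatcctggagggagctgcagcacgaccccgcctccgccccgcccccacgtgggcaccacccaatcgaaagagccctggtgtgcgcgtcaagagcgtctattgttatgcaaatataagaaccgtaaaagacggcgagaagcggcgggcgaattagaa

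The Hey2 window held 2 matches, beginning 207 and 4 bases before the annotated start. The Hes5 window also held 2, beginning 226 and 83 bases before the start. Neither window of Hes6 and not the window of Nrarp had these letters. Outside the target genes, Lfng, Psen2 and Aph1a held 1 match each in 1 of their windows. Of all 32851 RefSeq windows of this length, 6.38% held at least 1 match and 0.256% held 2 or more. A match is a description of the letters only.

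Of the 38 genes, 34 reached 1 TPM in both libraries (89.5%), against 57.3% of all 21474 protein-coding genes. TPM is the deposited measure of abundance, relative to the sum over all listed features and corrected for transcript length. At 10 TPM in both libraries, 16 of 38 genes remained (42.1%), against 33.9% of protein-coding genes. The median gene of the pathway had 8.95 TPM in replicate 1 and 9.66 in replicate 2, while the median over all protein-coding genes was 2.93 and 3.19 TPM. Among genes that reached 1 TPM the order was the other way round, with pathway medians of 9.25 and 10.1 TPM and medians over all such protein-coding genes of 14.4 and 15.8 TPM. RNA of nearly all the named parts was thus present, most of it at moderate level. The members were chosen with earlier results of these data known, so the higher share is not read as enrichment. The 4 genes below the threshold were the ligands Dll3 and Dlk2, the target Hes5 and the ligase Dtx1.

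**Figure D1:**
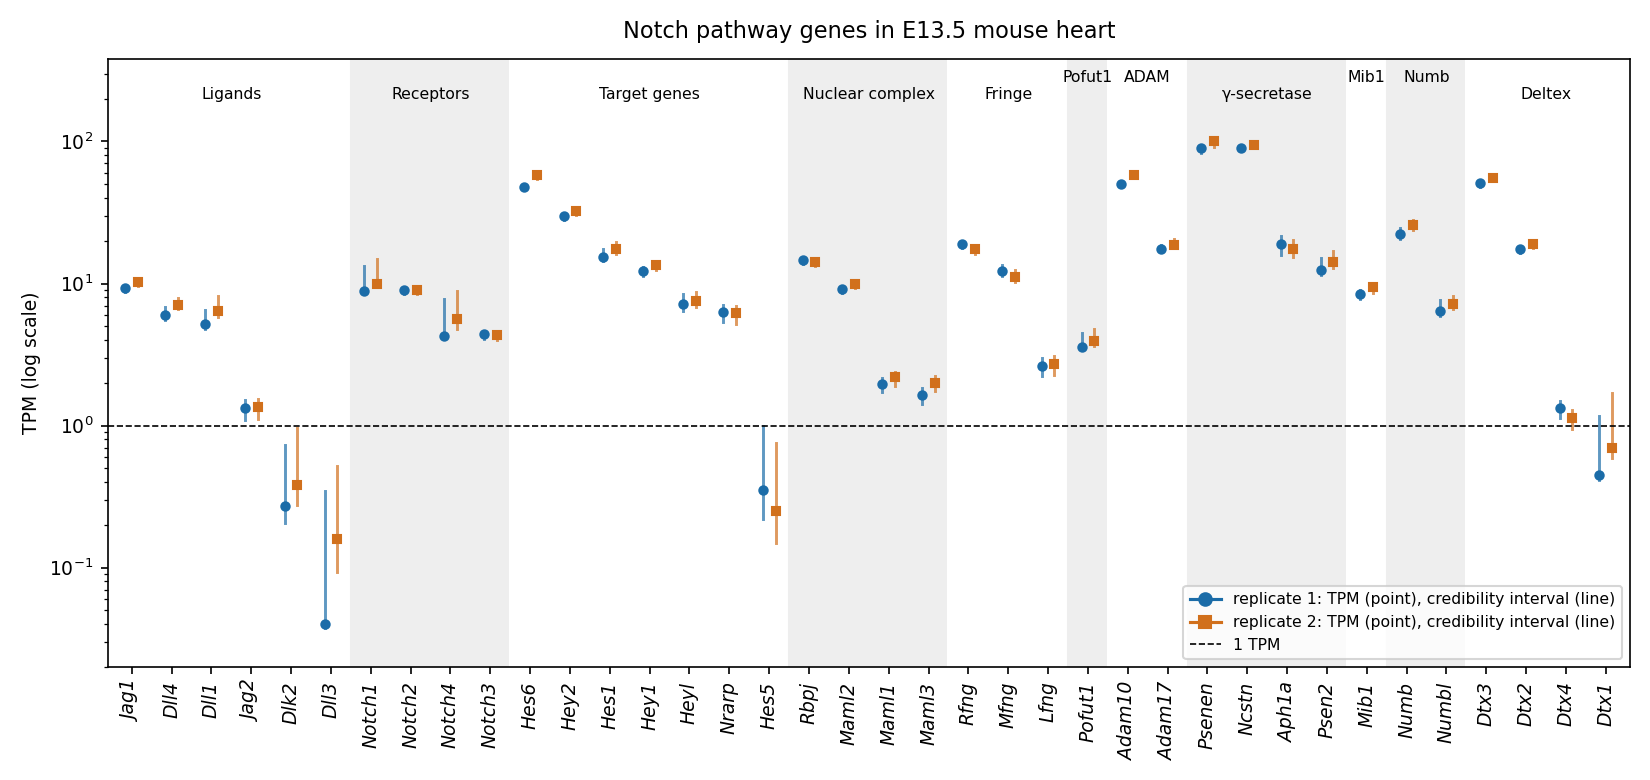
TPM of the 38 Notch pathway genes on a log axis, grouped by role, with replicate 1 as circles and replicate 2 as squares; the vertical lines are the deposited credibility intervals and the dashed line is 1 TPM. The secretase subunits Psenen and Ncstn lie highest, near 95.3 and 91.8 TPM, and Dll3, Hes5, Dlk2 and Dtx1 lie below the dashed line in both libraries.

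Estimated reads over all listed features, spike-ins included, summed to 36733400 in replicate 1 and 36060765 in replicate 2. Over Ensembl genes alone they summed to 34545778 and 35137136. The common biological coefficient of variation from edgeR over 16410 genes was 0.0888. Added spike-ins made up 11.1% of the TPM sum of replicate 1 and 5.04% of that of replicate 2, and TPM is relative to that sum. The median TPM ratio of replicate 1 over replicate 2 over 13757 genes was -0.15 on the log2 scale as deposited and -0.05 after rescaling over Ensembl genes alone. Each SD below is over n = 2 libraries and carries that shift. The tissue label was checked against markers: all 8 cardiomyocyte and all 10 endothelial and endocardial markers reached 1 TPM in both libraries, led by Actc1, Myl2 and Tnnt2 and by Plvap, Pecam1 and Emcn. Of the 8 hepatocyte markers, 6 reached 1 TPM in both libraries. All 8 together summed to 93.3 TPM in replicate 1, led by Trf, Afp and Apoa2, against 469 TPM in replicate 2, led by Afp, Apoa2 and Trf. All 8 erythroid markers, led by Hbb-y, Hba-x and Alas2, and all 8 macrophage markers reached 1 TPM in both libraries, as did 6 of 8 lung and foregut and 3 of 8 skeletal muscle markers. The erythroid sum exceeded the cardiomyocyte sum in replicate 1 and was below it in replicate 2. In bulk RNA, fewer cells of a type and less RNA per cell cannot be told apart.

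All 4 receptors were expressed, with Notch1 and Notch2 above Notch3 and Notch4. Notch1 (ENSMUSG00000026923.11, chromosome 2, 26457903 to 26516663 on GRCm38), the receptor known for endocardial and endothelial roles, had 8.88 TPM in replicate 1 and 9.95 TPM in replicate 2. Notch2, known for roles in outflow tract smooth muscle, had 9.01 and 8.97 TPM. Notch1 was therefore lower than Notch2 in replicate 1 and higher in replicate 2, and the log2 ratio of Notch1 over Notch2 averaged 0.06 ± 0.12 (SD, n = 2). Notch3, a receptor of vascular smooth muscle and pericytes, had 4.44 and 4.37 TPM. Notch4, a receptor of endothelial cells (chromosome 17, 34564268 to 34588503), had 4.28 and 5.64 TPM. Notch1 and Notch2 each held about the same share of the summed receptor TPM, 33.4% and 34.4% for Notch1 and 33.9% and 31.0% for Notch2.

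Levels were compared for all 65 pairs of genes with the same role. A pair was called separated where both libraries gave the same order and the deposited credibility intervals overlapped in neither. This held for 55 of the 65 pairs. It is a rule on intervals within libraries, not a test over samples. The share of other gene pairs that would pass was not computed, so the count is no trait of the pathway. Notch2 exceeded Notch3 by 2.04-fold and Notch1 exceeded Notch3 by 2.13-fold, and both pairs were separated. Notch1 with Notch2, Notch2 with Notch4 and Notch3 with Notch4 were not separated.

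The receptors were also the genes whose order depended on how the TPM was read. The deposited TPM of Notch1 lay below its own credibility interval in both libraries, at 8.88 against 9.59 to 13.3 TPM in replicate 1 and at 9.95 against 10.6 to 15.0 TPM in replicate 2. Its deposited posterior mean was 11.3 and 12.7 TPM. Of the 11 listed Notch1 transcripts, 7 had no reads in either library and still summed to 2.20 and 2.49 TPM in the posterior mean. By posterior mean Notch1 exceeded Notch2 by 0.44 on the log2 scale and the pair was separated, whereas by protein-coding transcripts alone Notch1 stood at 8.01 and 8.53 TPM, -0.12 relative to Notch2. Notch2, which has 1 listed transcript, had a posterior mean of 8.84 and 8.79 TPM.

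Notch4 behaved likewise and was the only other gene of the 38 with a TPM outside its interval, in replicate 1, at 4.28 against 4.43 to 7.77 TPM. Its single protein-coding transcript Notch4-201, 6591 nt long, held 96.6% and 89.7% of the gene's estimated reads but only 54.8% and 36.0% of its TPM. The retained-intron transcript Notch4-209, 352 nt long, held 41.0% and 22.6% of the TPM on 13.0 and 8.85 estimated reads. By protein-coding transcripts alone Notch4 stood at 2.35 and 2.03 TPM and Notch3 exceeded it by 1.01 on the log2 scale. Whether the short transcripts were truly present was not tested.

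**Figure D2:**
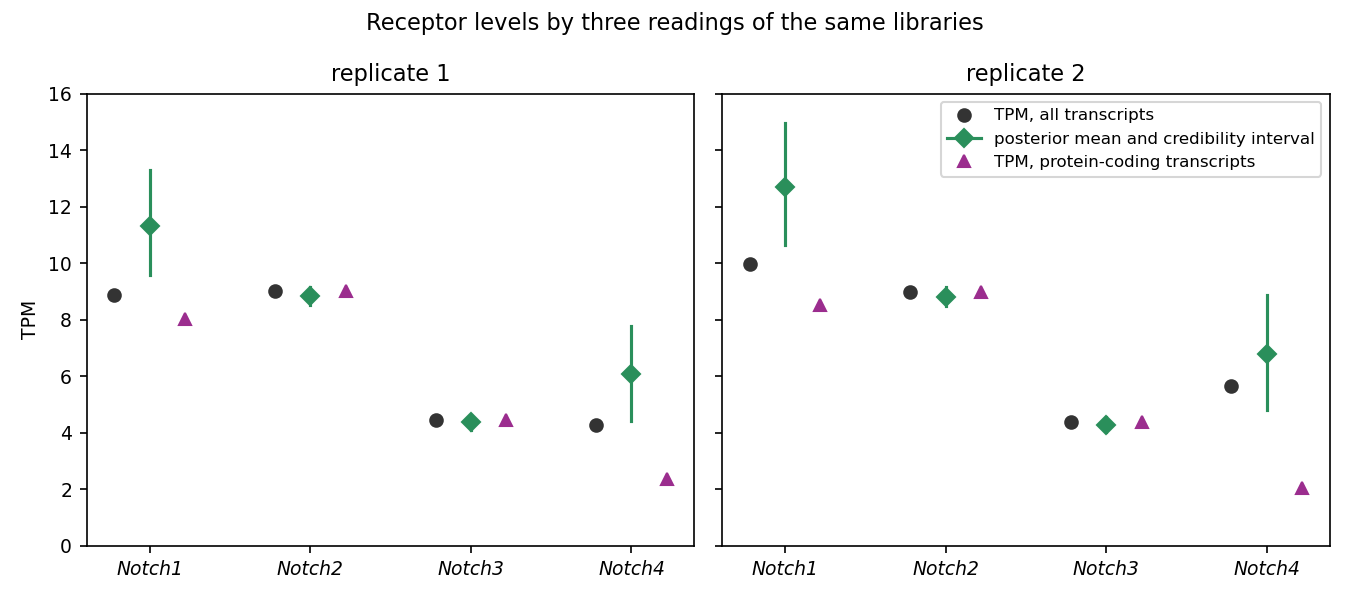
TPM of the 4 receptors in replicate 1 (left panel) and replicate 2 (right panel), read as deposited TPM over all transcripts (circles), as posterior mean with credibility interval (diamonds and lines) and as TPM of protein-coding transcripts (triangles). The readings coincide for Notch2 and Notch3 and part for Notch1, from 8.01 to 11.3 TPM in replicate 1, and for Notch4, from 2.35 to 6.06 TPM.

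Jag1 was the highest of the ligands, followed by Dll4 and Dll1, and these 3 held most of the ligand TPM. Jag1 (chromosome 2, 137081456 to 137116644), a ligand known for its role in the outflow tract and in smooth muscle, had 9.30 TPM in replicate 1 and 10.3 TPM in replicate 2 (9.81 ± 0.714, SD, n = 2). Dll4, a ligand of endothelium and endocardium, had 6.02 and 7.09 TPM. Dll1, a Delta ligand of fetal arterial endothelium, had 5.15 and 6.40 TPM. Jag1 exceeded Dll4 by 0.58 and Dll1 by 0.77 on the log2 scale, and both pairs were separated in both libraries. Dll4 and Dll1 were not separated.

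Jag2, the second Jagged ligand, stayed near the threshold at 1.32 and 1.35 TPM on 153 and 146 reads. Jag1 exceeded it by 7.34-fold. Dlk2, a Delta-like protein without the DSL domain of classical ligands, had 0.27 and 0.38 TPM on 10 and 13 reads. Dll3, a divergent Delta protein of the forming somites, had 0.04 and 0.16 TPM on 3 and 7 reads. For both, the upper bound of the interval lay below 1 TPM in each library, so the 4 ligands that reached 1 TPM were Jag1, Dll4, Dll1 and Jag2.

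The 7 target genes spanned mean levels of 0.30 to 53.0 TPM. Hes6 was the highest, with 47.9 TPM in replicate 1 and 58.1 TPM in replicate 2 (53.0 ± 7.27, SD, n = 2). It is an atypical HES factor, known to counteract Hes1 and not regarded as a classical Notch target. Hey2 (chromosome 10, 30832359 to 30842801), a repressor of ventricular myocardium, had 29.9 and 32.3 TPM (31.1 ± 1.72). Hes6 exceeded Hey2 by 1.70-fold, and together they held 65.2% and 66.8% of the summed TPM of the target genes.

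Hes1, a broadly used Notch effector, had 15.4 and 17.5 TPM. Hey1, a HEY repressor of atrial and endocardial cells, had 12.2 and 13.5 TPM. Heyl, a HEY factor known from smooth muscle, had 7.21 and 7.53 TPM. Nrarp, a feedback inhibitor that binds the intracellular domain, had 6.28 and 6.24 TPM. Hey2 exceeded Hey1 by 2.42-fold and Hes1 exceeded Hey1 by 1.28-fold, with separation in both libraries, while Heyl and Nrarp were not separated.

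Hes5, a Notch effector best known from neural progenitors (chromosome 4), was the only target gene below the threshold, with 0.35 TPM in replicate 1 and 0.25 TPM in replicate 2 on 12 and 8 reads and upper interval bounds of 0.99 and 0.75 TPM. Hey2 exceeded it by 105-fold; the windows of both, shown above, hold 2 matches each. Hes6 exceeded Nrarp by 8.43-fold, and neither has a match in its windows. With 4 genes, no relation of matches to levels was examined. Of the neural and glial markers, 5 of 8 reached 1 TPM in both libraries, and all 8 together summed to 16.3 and 19.9 TPM.

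Within the nuclear complex, Rbpj, the DNA-binding partner of the intracellular domain, had 14.5 TPM in replicate 1 and 14.1 TPM in replicate 2. Of the Mastermind coactivators, Maml2 stood apart at 9.19 and 9.92 TPM, while Maml1 had 1.97 and 2.19 TPM and Maml3 had 1.63 and 2.01 TPM. Maml2 exceeded Maml1 by 2.20 and Maml3 by 2.40 on the log2 scale, and Maml1 and Maml3 were not separated. Rbpj exceeded Maml2 by 0.59 on the log2 scale, with separated intervals.

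Receptor glycosylation was represented by all of its listed enzymes. Pofut1, which adds the O-fucose that the fringe enzymes extend to tune ligand choice, had 3.55 and 3.91 TPM. Rfng had 19.1 TPM in replicate 1 and 17.5 TPM in replicate 2, Mfng had 12.3 and 11.2 TPM, and Lfng, the fringe enzyme of the segmentation clock, had 2.64 and 2.71 TPM. All 3 fringe pairs were separated, with Rfng above Mfng by 1.56-fold and above Lfng by 6.84-fold. The noncoding processed transcript Rfng-202 held 28.0% and 33.4% of the Rfng TPM, and with protein-coding transcripts alone the difference of Mfng and Rfng shrank to -0.19 on the log2 scale.

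The highest of the 38 genes, Psenen and Ncstn, encode parts of the processing machinery. Adam10, the protease known for the first ligand-induced cut of Notch, had 49.8 TPM in replicate 1 and 57.6 TPM in replicate 2 (53.7 ± 5.55), and exceeded Adam17, a related protease, by 2.97-fold (17.4 and 18.7 TPM). Of the gamma-secretase subunits, Psenen, which matures the complex, had 90.2 and 100.4 TPM (95.3 ± 7.24) and Ncstn, which binds substrates, had 89.4 and 94.2 TPM (91.8 ± 3.40), and the pair was not separated. Aph1a, a scaffold subunit, had 19.0 and 17.6 TPM. Psen2, a catalytic subunit, had 12.4 and 14.2 TPM, and Ncstn exceeded it by 6.92-fold. The estimated counts of Psenen, Ncstn and Aph1a were not whole, so some of their reads were shared with other features. Each of these 3 genes also overlaps a protein-coding gene on the opposite strand (U2af1l4 and Gm49396 for Psenen, Copa for Ncstn, Car14 for Aph1a). Adam17, with Iah1, and Dlk2, with Abcc10, do so too, although their counts were whole. The sources used here do not say whether counting used strand. The levels of all these genes are therefore uncertain, as is the fold of Adam10 over Adam17. Counts of Notch1, Notch3, Dll1, Nrarp and Rbpj were not whole either, and 21 of the 38 genes overlap some annotated gene on the opposite strand.

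Mib1, the ubiquitin ligase that ligand-bearing cells need to send the signal, had 8.43 and 9.39 TPM. Numb, an inhibitor that lowers receptor levels in the receiving cell, had 22.2 TPM in replicate 1 and 25.8 TPM in replicate 2, and exceeded its relative Numbl (6.44 and 7.21 TPM) by 3.51-fold. The Deltex ligases, named after a fly protein that binds Notch, spread over a wide range. Dtx3 had 50.7 and 55.5 TPM, Dtx2 had 17.4 and 19.0 TPM, Dtx4 had 1.33 and 1.13 TPM, and Dtx1 had 0.45 and 0.70 TPM. Dtx3 thus held 72.5% and 72.7% of the Deltex TPM. The interval of Dtx1 reached from 0.41 to 1.16 TPM in replicate 1 and from 0.59 to 1.70 TPM in replicate 2, so whether it lay under 1 TPM was not settled at this depth.

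Transcript shares were examined next, since 30 of the 38 genes have more than 1 listed transcript. Of the 26 such genes that reached 1 TPM, 22 (84.6%) had the same transcript above 50% of the gene's TPM in both libraries, against 71.5% of protein-coding genes under the same rule. All 22 leading transcripts were protein-coding, and 14 exceeded 80% in both libraries, among them those of Dll4, Jag1, Hes1, Hes6, Hey1, Heyl, Notch1, Rbpj, Adam10 and Ncstn. The 4 genes without such a transcript were Notch4, Maml3, Pofut1 and Dtx3.

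Dtx3 was divided between 2 protein-coding transcripts, with Dtx3-201 at 49.0% of the gene's TPM in replicate 1 and 41.0% in replicate 2, and Dtx3-202 at 35.8% and 42.4%. The leading one differed between the libraries. In Pofut1 the coding Pofut1-201 held 60.5% and 46.3% and the retained-intron Pofut1-205 held 37.8% and 39.0%. In Maml3 the coding Maml3-202 held 66.5% and 47.4%. For Aph1a the share of Aph1a-201 was 69.4% in replicate 1 and 89.4% in replicate 2, the reads being partly shared.

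In Mib1 the share depended on the quantity. Mib1-204, 2721 nt long, held 64.8% and 63.0% of the gene's TPM, while Mib1-201, 10231 nt long, held 34.8% and 36.2% of the TPM but 67.4% and 68.8% of the estimated reads. Both are protein-coding. In Numb the leading Numb-204 held 58.0% and 61.4% of TPM, and all protein-coding transcripts together averaged 19.3 TPM over both libraries.

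**Figure D3:**
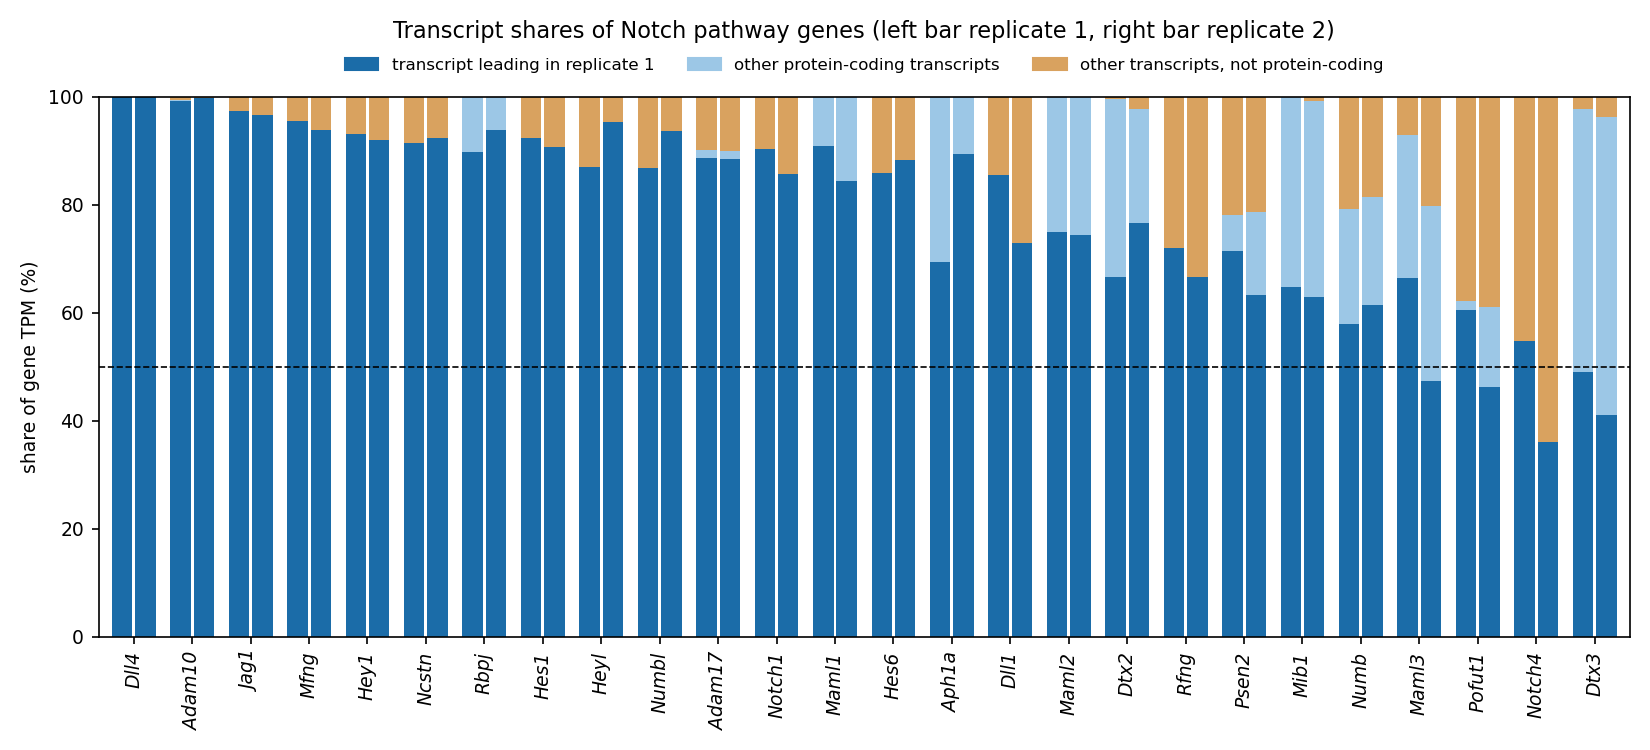
Share of the gene's TPM, in percent, held by the transcript that led in replicate 1 (dark blue), by other protein-coding transcripts (light blue) and by other transcripts (orange), for the 26 genes with 1 TPM and more than 1 listed transcript; the left bar of each pair is replicate 1 and the right bar replicate 2. The dashed line is 50%; Notch4, Maml3, Pofut1 and Dtx3 fall below it in replicate 2.

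The libraries were compared next, with 1 library on each side and so with no test and no p-value. After TMM scaling of the counts, 34 of the 38 genes averaged 50 reads or more, and 0 of these were 2-fold or more apart, against 1.00% of all 13760 genes with such counts, so the share is near that of genes at large. DESeq2's size factors also gave 0. Scaling by spike-ins gave 32 of the 34, against 93.1% of all genes, and shifted the median of all genes to -1.29 on the log2 scale, so the pathway's ratios of -1.42 to -0.92 moved with genes at large. With TMM scaling the log2 ratio of replicate 1 over replicate 2 ranged from -0.13 in Hes6 to 0.37 in Dtx4, with a median of 0.03 over the 34 genes and 0.003 over all genes. The direction depended on the scale: of the same 34 genes, 23 were higher in replicate 1 and 11 in replicate 2 by TMM-scaled counts, 0 and 34 by spike-in scaling, 8 and 26 by deposited TPM, and 12 and 22 by TPM rescaled over Ensembl genes.

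The genes with the highest TMM-scaled ratios were Dtx4 at 0.37, Mfng at 0.29, Rfng at 0.25, Notch4 at 0.24, Pofut1 at 0.21 and Rbpj at 0.19. Set beside the central 90% of genes of the same count class, Rfng alone lay outside, on 1183 and 1025 reads. Its class took all genes whose mean count reached 1000, without an upper limit, and had a range of -0.17 to 0.19. Rfng lay near the lower edge of that class, with a mean count of 1105. Among genes with a mean count of 200 to 1000 the range was wider, from -0.29 to 0.32. The other 33 genes lay inside the range of their count class. Counting intervals at 95% excluded 0 for 12 of the 34 ratios, against 37.0% of all genes with such counts, a similar share. These intervals cover counting error only. Beside these ratios, the 10 endothelial and endocardial markers had a median log2 ratio of 0.09 and summed levels of 379 and 401 TPM. The 8 epicardial markers had a median of 0.22 (268 and 251 TPM) and the 8 cushion and fibroblast markers one of 0.24 (1497 and 1302 TPM), with every marker of these 3 lists at 1 TPM or above in both libraries. The 8 macrophage markers had a median of 0.29 (177 and 192 TPM). It was -0.08 for the 8 smooth muscle and pericyte markers (1513 and 1763 TPM). Of that sum, Acta2 held 956 and 1093 TPM and Des 306 and 349 TPM. The 8 cardiomyocyte markers had a median of -0.10 (28067 and 33931 TPM). The 8 erythroid markers had a median of 0.07, while their summed level was 36393 TPM in replicate 1 against 22146 TPM in replicate 2. Their log2 ratios went both ways, from -1.59 in Klf1 and -1.17 in Gata1 to 0.84 in Hbb-y and 1.09 in Hba-x. The hepatocyte markers had a median of -2.45. For the remaining lists only markers with enough reads entered the median. It was 0.26 for lung and foregut epithelium (7 of 8 markers) and 0.14 for neural and glial markers (5 of 8). For skeletal muscle it was -0.60 (4 of 8). Over all 8 markers, lung and foregut summed to 52.2 and 49.3 TPM and skeletal muscle to 200 and 254 TPM. Ckm held 172 and 218 TPM of the skeletal muscle sum, and 4 of its 8 markers were below 1 TPM in both libraries. The part of these marker lists in the ratios was not tested.

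**Figure D4:**
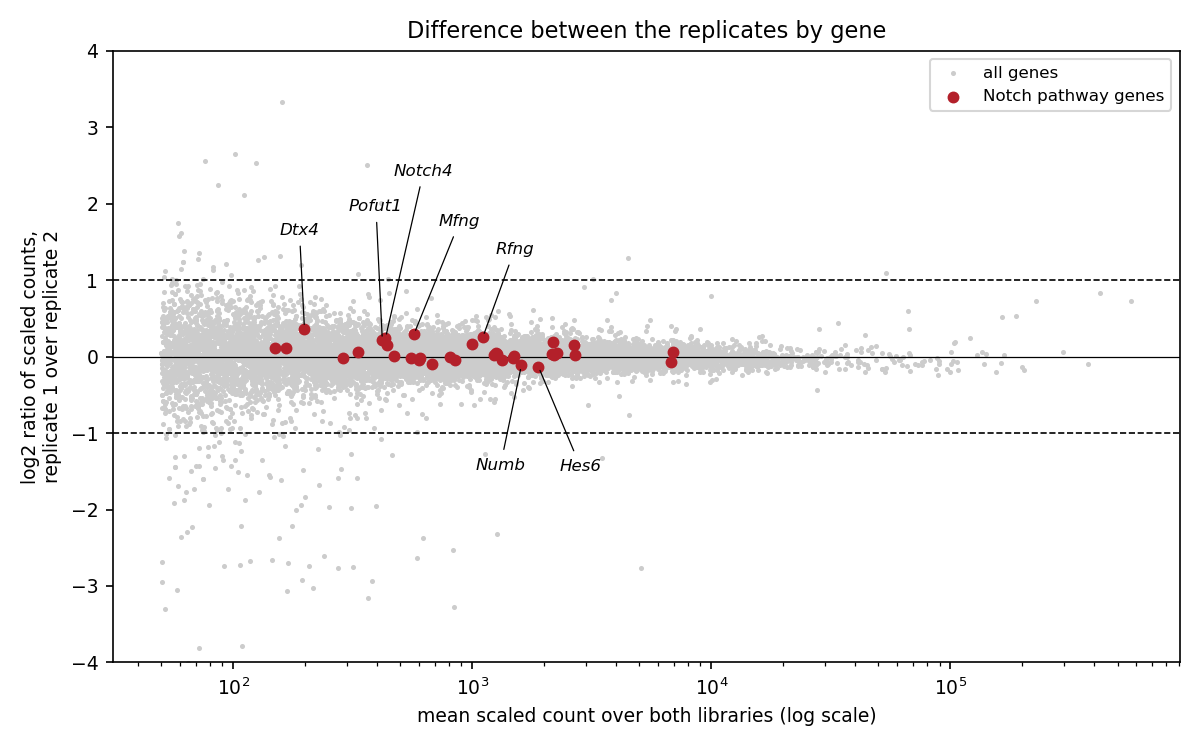
Log2 ratio of TMM-scaled counts, replicate 1 over replicate 2, against the mean scaled count on a log axis, for all genes averaging 50 reads or more (grey, 7 genes beyond the axis) and the 34 Notch pathway genes among them (red). The dashed lines mark 2-fold; every red point lies between them, from -0.13 to 0.37.

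Further genes of the pathway were set beside the 38. Of 37 listed regulators and cofactors, 32 reached 1 TPM in both libraries, against 57.3% of all protein-coding genes. This list too was chosen with earlier results of these data known, so its share is not read as enrichment. The list medians were 8.43 TPM in replicate 1 and 10.4 TPM in replicate 2. The highest were Ctbp1, a corepressor (130 and 157 TPM), Egfl7, a secreted endothelial protein (133 and 152 TPM), the histone deacetylases Hdac2 (113 and 130 TPM) and Hdac1 (99.4 and 116 TPM), the corepressor Ncor1 (78.1 and 87.8 TPM) and the Rbpj-binding cofactor Snw1 (56.4 and 65.5 TPM). Those below 1 TPM in both libraries were Hes2, Hes3, Hes7 and Helt, all of them HES-family or related repressors, and Hes3 had 0 reads. Dner, an atypical ligand, had 0.96 and 1.19 TPM. With Hes5, 5 HES-family or related genes were thus below 1 TPM in both libraries. Hes1, Hes6 and the related Hey1 and Hey2 were above 10 TPM in both, and Heyl had 7.21 and 7.53 TPM.

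All 10 genes placed downstream of Notch in the mouse heart reached 1 TPM in both libraries, against 57.3% of all protein-coding genes. They were listed for their part in the heart and with earlier results of these data known, so this share shows no enrichment. Whether Notch acted on them here was not tested. The highest were Nos3, endothelial nitric oxide synthase, with 26.4 TPM in replicate 1 and 28.7 TPM in replicate 2, and the transcription factors Snai2 (21.8 and 21.1 TPM) and Snai1 (13.7 and 14.2 TPM), which act in the cushions. They were followed by the transcription factors Gata5 (11.5 and 9.66 TPM) and Hand2 (9.75 and 9.93 TPM) and by Efnb2, an arterial ephrin (8.90 and 9.29 TPM).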

How the data were processed

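Heart RNA of E13.5 mouse embryos was sequenced in 2 libraries of 1 group. The deposited tables give, per the file headers, an expected count per gene and transcript without normalization, TPM scaled over all listed features, and each transcript's percent of its gene's TPM. They also give posterior mean TPM and a credibility interval, whose level is not stated. The file descriptions name mm10 and annotation M4; aligner and quantifier: not given in the sources used here. Identifiers were matched to GENCODE M21 on GRCm38 (42462 of 43346 Ensembl genes). Spike-ins (96), phiX and 26248 numbered features stayed out of gene comparisons; spike-ins took 5.96% of reads in replicate 1 and 2.56% in replicate 2.

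Expected counts were rounded to whole numbers and scaled by TMM in edgeR 4.0.16, and alternatively by size factors of DESeq2 1.42.0, under R 4.3.3. Log2 ratios are of scaled counts plus 0.5, replicate 1 over replicate 2. The replicates differed beyond sampling noise (chi-square of 25.2 per degree of freedom, 13763 genes). The log2 ratio and the 2-fold call were checked on simulated counts. These were drawn with the same TMM factors, so the scaling itself was not tested. Python 3.11.15, numpy 2.4.6, pandas 2.3.3 and matplotlib 3.10.9 were used. The members and lists were chosen with earlier results of these data known. All 38 members were named; of the further Notch genes and the downstream genes, the 6 highest and those below 1 TPM in both libraries where 6 or fewer; of marker lists, the 3 highest. Dner, Klf1, Gata1 and the genes that overlap members were named after their values were seen. Alternatives covered the TPM threshold and column, scaling, count minimum, pseudocount, pair rule, transcript share and leaving out either replicate; those with protein-coding transcripts only were chosen after seeing the data. Protein sequences were not used here. Biological replicates are labelled as such, but whether their embryos came from separate litters is not given.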

Additional observations from a re-analysis of the deposited data

How the results depend on the processing

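The number of genes at 1 TPM stayed at 34 under 0.5 TPM, posterior means, TPM rescaled over Ensembl genes, protein-coding transcripts only and with either replicate left out. It was 30 at 2 TPM and 26 at 5 TPM. Separated pairs numbered 55 to 57, 57 when either replicate was left out and 56 by posterior means; a 1.5-fold rule without intervals gave 55, of which 52 were shared with the interval rule, and on protein-coding transcripts it gave 55, of which 50 were shared. Those lost on protein-coding transcripts included Rfng over Mfng and Hes6 over Hey2 (log2 0.56). Genes 2-fold apart between replicates numbered 32 by spike-in scaling, which shifted the median of all genes to -1.29 and put the pathway's ratios between -1.42 and -0.92; without a minimum count there was 1, Dll3, on 3 and 7 reads. Genes with a leading transcript numbered 14 at a share over 80%, and 22 to 25 with either replicate left out. TPM levels moved by more than 1 SD for 24 of 38 genes when rescaled, 11 by posterior mean and 13 on protein-coding transcripts; log2 ratios moved beyond their counting intervals for 34 of 34 genes by spike-ins, for 20 by TPM, and for 0 by DESeq2 size factors or a pseudocount of 5. No paired analysis was possible because the 2 libraries form 1 group. Levels were not tested over the 2 libraries, and Dll3, Dlk2, Hes5 and Dtx1 rest on 3 to 50 reads.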
